A study of Mus musculus with 6 samples.

Results

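Here the transcriptome of cultured mouse cortical neurons that had been silenced but not yet depolarized was described from the 2 libraries labelled KCl 0 h, out of 6 libraries in the series. The members were chosen by that label, and all 43432 listed genes were considered. Cortices of C57BL/6 embryos at E16.5 were dissociated and grown for 7 days in Neurobasal medium with B27 supplement on laminin and poly-ornithine. Embryos of both sexes were pooled, and no transgene or mutant allele was carried. On the last evening the cultures received 1 µM tetrodotoxin, which blocks voltage-gated sodium channels, and 100 µM DL-AP5, which blocks the NMDA class of glutamate receptors. The study then applied 55 mM KCl for 0, 2 or 6 h, so the silencing was shared by all groups and the 0 h dishes were harvested without exposure to high potassium. The question addressed here is which transcripts such a culture held at rest, and no comparison with the other time points was made.

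A dissociated embryonic cortex yields mostly glutamatergic projection neurons born in the cortical wall, with fewer GABAergic interneurons that migrate in from the ventral forebrain, and with progenitors that give rise to glia. In culture these neurons extend neurites, build synapses and exchange early isoforms of channels and receptors for late ones. When they fire, calcium entry switches on immediate-early genes such as Fos, Arc and Npas4 within minutes, and silencing with tetrodotoxin and AP5 is widely used to bring these genes to a low level before stimulation.

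The total of estimated counts was 27860328 in replicate 1 and 28573067 in replicate 2. Expression is given below as TPM (relative transcript abundance), a value corrected for transcript length so that genes can be compared with each other, and pairs of values are in the order replicate 1, replicate 2. A gene was called detected when it reached 1 TPM in both libraries, which 13078 genes did. Of these, 12270 were protein coding, out of 21551 listed protein-coding genes. There was no count in either library for 23374 listed genes. The median level of the detected genes was 20.8 TPM, with 8995 genes at a mean of 10 TPM or more, 1682 at 100 or more and 114 at 1000 or more. The levels in both libraries differed little for most genes. The median absolute log2 ratio between the libraries was 0.10 over the 12329 detected genes with a mean of at least 50 counts. With 2 libraries in the group, each SD below rests on n = 2. The libraries are described as biological replicates, and whether they came from separate litters is not given in the sources used here.

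The most abundant transcripts were those of translation, respiration and the cytoskeleton. In replicate 1, 394 genes held 50% of the summed TPM, and in replicate 2 the number was 397. In counts the numbers were 971 and 990. The 40 most abundant genes held 24.8% and 23.9% of the summed TPM. They comprised 7 genes of the mitochondrial chromosome, 5 nuclear copies of mitochondrial DNA, 8 ribosomal protein genes or copies of such genes, 6 cytoskeletal genes and 14 others.

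The highest-ranked nuclear gene with a known protein product was Tuba1a, the alpha-tubulin of growing axons, at 18152 and 18004 TPM. Eef1a1, which delivers aminoacyl-tRNA to the ribosome, followed at 7394 and 7241 TPM. Stmn1, a regulator of microtubule growth, reached 4798 and 5296 TPM, and Tubb2b, a beta-tubulin of migrating and differentiating neurons, 4403 and 4516 TPM. Of these 4 genes the libraries differed most for Stmn1, by 1.10-fold. Fabp7, the fatty acid-binding protein of radial glia and astrocytes, was the most abundant transcript of a non-neuronal marker list, at 3861 and 3869 TPM. Nnat, an imprinted gene of the developing brain, stood at 2677 and 2421 TPM, and Stmn2, a neuronal relative of Stmn1, at 2175 and 2153 TPM. For 22 of the 40 genes the expected count was not whole, which shows that reads were divided with another gene, and Tuba1a, Eef1a1, Tubb2b and Stmn2 were among them. A whole count does not show the opposite, as mt-Nd4 below illustrates.

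**Figure D1:**
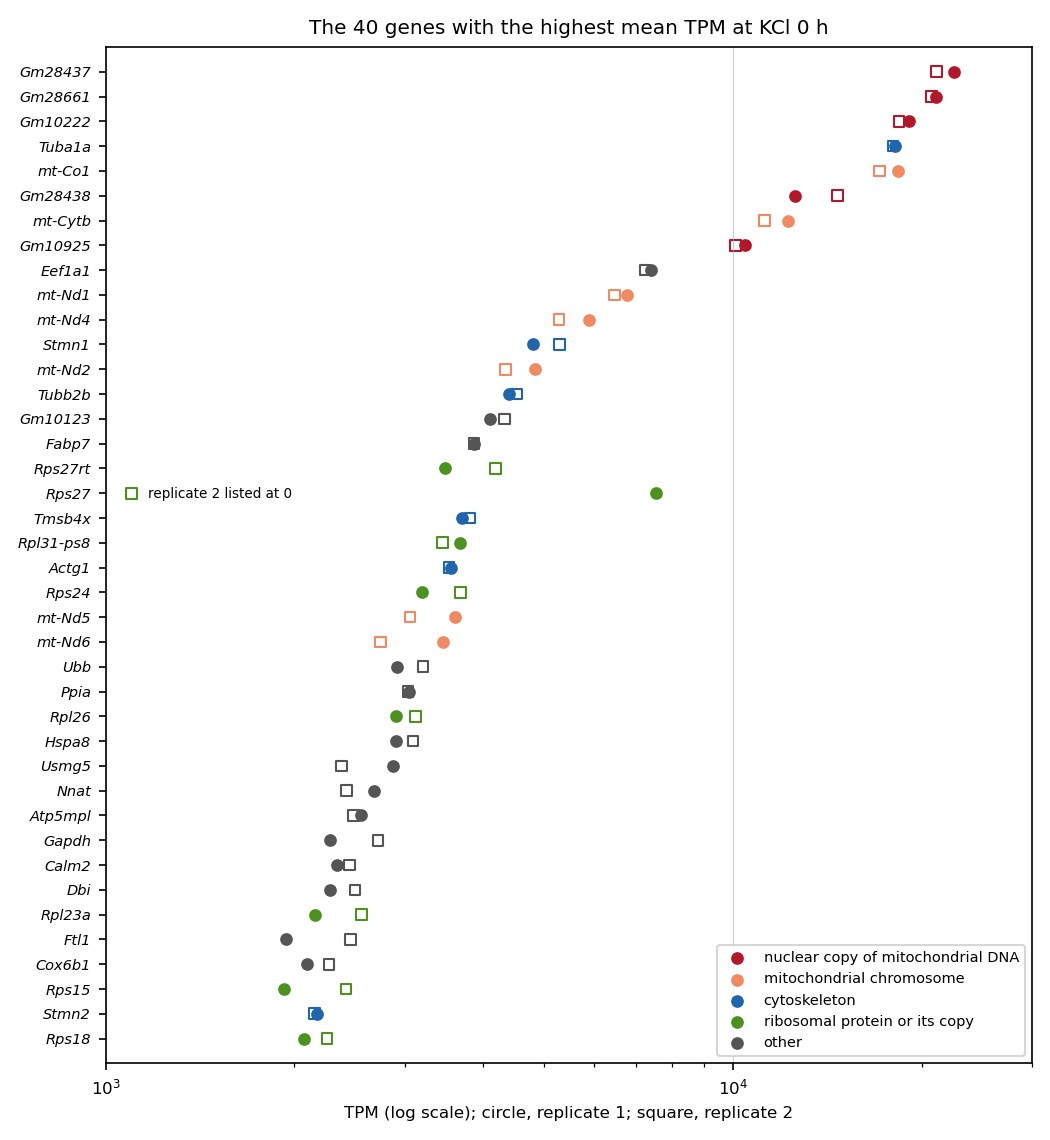
TPM on a log axis of the 40 genes with the highest mean over the 2 libraries at KCl 0 h, one gene per row, with circles for replicate 1, squares for replicate 2 and colours for the class of gene. Nuclear copies of mitochondrial DNA hold the first 3 rows, and Rps27 is the one gene whose 2 libraries lie far apart, at 7536 and 0 TPM.

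The first 3 ranks fell to genes on chromosome 1 that are copies of mitochondrial genes. These lie in a stretch of mitochondrial DNA inserted in the nuclear genome, at chr1:24611535-24616197 on the minus strand of GRCm38 (the build also called mm10), and GENCODE M21 annotates them as pseudogenes. The start of 2 copies is shown beside the mitochondrial gene each matches, because the shared bases are what makes the count ambiguous. The 90 bases are from the GENCODE M21 transcripts, 5′ to 3′, and a capital marks a base that differs between copy and original.
Gm28661 (chr1:24615476-24615565, minus strand): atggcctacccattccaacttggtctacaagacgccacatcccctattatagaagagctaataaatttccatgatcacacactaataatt
mt-Co2 (chrM:7013-7102, plus strand): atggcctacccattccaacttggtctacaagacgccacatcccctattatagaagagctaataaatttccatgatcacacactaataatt
Gm28438 (chr1:24613030-24613119, minus strand): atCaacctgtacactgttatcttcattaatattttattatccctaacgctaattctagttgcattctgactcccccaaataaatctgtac
mt-Nd3 (chrM:9459-9548, plus strand): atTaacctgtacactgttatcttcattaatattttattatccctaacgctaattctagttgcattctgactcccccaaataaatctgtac

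Over its whole length of 681 bases, Gm28661 had 0 mismatches to mt-Co2, the gene of cytochrome c oxidase subunit II. The deposited table put 127862 and 127157 counts on the nuclear copy and 761 and 123 on the mitochondrial gene. For Gm28437, which had 0 mismatches to mt-Co3 over 783 bases, the copy held 173002 and 165587 counts and the mitochondrial gene 2387 and 2327. The division of counts was therefore lopsided in both libraries for sequences that reads of this stretch cannot tell apart. The reverse division was listed for Gm28439, a copy of the first 876 bases of mt-Nd4 with 0 mismatches, which had 0 counts in both libraries beside 101411 and 93966 on mt-Nd4. Gm10925, the copy of mt-Atp6, held 62967 and 61444 counts beside 11172 and 8605 on the mitochondrial gene.

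The copies together held 8.68% and 8.59% of the summed TPM but 1.37% and 1.29% of the counts. Genes of the mitochondrial chromosome held 6.07% and 5.52% of the summed TPM. As listed, mt-Co1 was highest among the 13 protein genes of that chromosome, at 18314 and 17155 TPM. Next was mt-Cytb, the cytochrome b of complex III, at 12242 and 11231 TPM. This order depends on the listed division of counts. The copies Gm28437 (of mt-Co3) and Gm28661 (of mt-Co2) stood at 22502 and 21134 TPM and at 21106 and 20741 TPM. With the copies counted as mitochondrial, the protein genes of the respiratory chain that mitochondria encode held 14.5% and 13.8% of the summed TPM. That total was the largest share of any functional list examined. The last of the 13, mt-Atp8, had 15 and 7 counts and was listed at 0 TPM, because its effective length was 0 in both libraries.

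Effective length, the number of positions from which a fragment of typical size could start, was 302 and 314 bases below transcript length for most genes. For short genes it was close to 0, so that a few counts became a high TPM. Rps27, a protein of the small ribosomal subunit, had 154 and 71.6 counts, with effective lengths of 1.28 and 0 bases, and was listed at 7536 and 0 TPM. Its copy Rps27rt had 3851 and 4108 counts and 3481 and 4185 TPM. Gm10222, at rank 3, reached 19100 and 18401 TPM from 4205 and 3149 counts at effective lengths of 13.8 and 10.2 bases. Genes with an effective length under 200 bases held 9.88% and 9.61% of the summed TPM but 0.529% and 0.533% of the counts, and 11 of the 40 most abundant genes were of this kind.

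Among functions, protein synthesis took the largest nuclear share of TPM. Of 85 cytosolic ribosomal protein genes, 81 were detected, with 7.83% and 7.82% of the summed TPM and a median of 749 TPM. Without Rps27, whose TPM was set by an effective length near 0, the shares were 7.08% and 7.82%. As a share of the counts, without length correction, the ribosomal list alone held 1.89% ± 0.11, below the 3.08% of the stathmin and growth-cone list and the 2.27% of tubulins described next. The nuclear-encoded respiratory chain, whose subunits join the mitochondrial ones, had 89 of 95 genes detected and 3.03% and 3.09% of the summed TPM. Translation factors held 1.85% in each library, and after Eef1a1 the highest were the eIF4A helicases Eif4a1 (998 and 1002 TPM) and Eif4a2 (948 and 924 TPM).

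The cytoskeleton of growing neurites came next. The 15 tubulin genes held 2.97% in each library, of which Tuba1a made up 61.1% and 60.6%. Beside Tubb2b, the beta-tubulins Tubb5 (1779 and 1742 TPM), Tubb3 (1639 and 1679 TPM) and Tubb2a (1633 and 1606 TPM) were abundant. Tubb3 is the neuron-specific beta-tubulin that the Tuj1 antibody detects. At the other end, Tuba8 stood at 0.29 and 0.31 TPM, and Tubb1 and Tuba3b had 0 counts in both libraries. A count of 0 allows up to 3 counts, counting error alone considered.

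All 22 genes of the list of stathmins, microtubule-associated proteins and growth-cone proteins were detected, with 2.03% and 2.05% of the summed TPM. Gap43, a membrane protein of growth cones, was at 1408 and 1385 TPM. Mapt, which encodes tau, was at 1075 and 1033 TPM, and Map2, its counterpart in dendrites, at 1063 and 985 TPM. The lowest member was Cntn2, an axonal adhesion molecule, at 32.7 and 35.5 TPM, which still lay above the median detected gene. Actins and actin regulators held 1.49% and 1.54%, led by Tmsb4x, the actin monomer buffer thymosin beta 4, at 3705 and 3810 TPM.

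Synaptic genes were detected throughout but at lower levels. All 26 genes of the vesicle and release list were detected, with 0.512% and 0.508% of the summed TPM and a median of 154.0 TPM. The vesicle SNARE Vamp2 was at 559 and 562 TPM, its plasma membrane partner Snap25 at 427 and 415 TPM, and the vesicle protein synaptophysin (Syp) at 394 and 388 TPM. All 21 postsynaptic genes were also detected, with 0.177% in each library. Their median was 48.6 TPM, below that of the presynaptic list. Camk2b, a subunit of the calcium-dependent kinase of the postsynaptic density, led this list at 336 and 349 TPM, and Homer3, a scaffold protein, was lowest at 11.4 and 13.1 TPM.

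**Figure D2:**
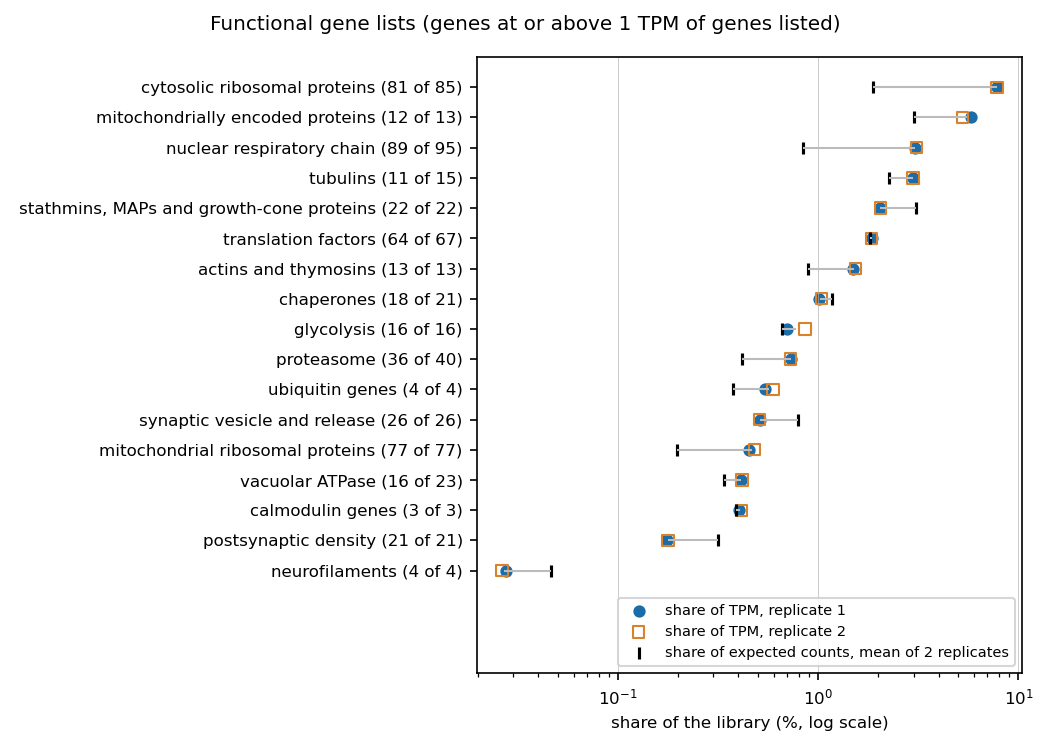
Share of each functional list in the summed TPM of replicate 1 (circles) and replicate 2 (squares) and in the estimated counts (mean of both, bars), in percent on a log axis, with the number of detected genes of those listed. Ribosomal proteins stand at 7.83% and 7.82% of TPM (7.08% and 7.82% without Rps27) but 1.89% of counts, and glycolysis is the list whose libraries differ most, at 0.700% and 0.858%.

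Glycolysis differed between the libraries more than any other functional list, by the median ratio of its genes. The 16 genes summed to 6998 and 8584 TPM, and 15 of the 16 were higher in replicate 2, with a median ratio of 1.23 to replicate 1. Of the 12329 genes compared, 52.0% were higher in replicate 2. Ldha, which reduces pyruvate to lactate, was at 595 and 828 TPM, and Eno1, the ubiquitous enolase, at 460.4 and 649 TPM. Gapdh, often used as a reference gene, was at 2277 and 2719 TPM. Pfkp, the platelet-type phosphofructokinase, was the exception at 75.0 and 70.7 TPM. The list's median GC content was 53.2%, and the median log2 ratio (replicate 1 over replicate 2) of all genes in the same group of GC content (4 groups of nearly equal size) was -0.03, against -0.29 for the list. The part of GC content in this difference was not tested.

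Regional identity was that of the forebrain. All 8 forebrain patterning genes were detected. Lhx2, a selector gene of the cortex, was at 30.6 and 34.4 TPM, and Nr2f1, a factor of cortical area patterning, at 37.5 and 36.1 TPM. Emx1, which marks the dorsal cortical wall, was much lower at 1.31 and 2.04 TPM. Of 12 midbrain and hindbrain genes only Otx2 was detected, at 1.23 and 1.45 TPM, and 7 had no count in either library. En1, a factor of the midbrain and hindbrain boundary, was among these 7. Its 0 counts allow up to 0.0808 and 0.0777 TPM. Of 39 Hox genes, which pattern the hindbrain and spinal cord, 0 were detected and the summed level was 0.20 and 0.35 TPM.

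Neuronal identity was carried by high levels of general neuronal genes. All 14 pan-neuronal genes were detected, at a summed 8603 and 8614 TPM. Beside Stmn2, Tubb3, Gap43 and Map2, already described, the list held Uchl1, a neuronal ubiquitin hydrolase, at 1011 and 1102 TPM, and ran down to Nefl, the light neurofilament, at 33.4 and 34.8 TPM. Rbfox3, whose protein is the NeuN antigen of postmitotic neurons, was at 46.2 and 49.2 TPM. Elavl3 and Elavl4, RNA-binding proteins of neurons, were at 180.2 and 183 TPM and at 98.7 and 96.1 TPM.

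The glutamatergic list was present in full. All 9 genes were detected and summed to 539 TPM in each library (539 ± 0.29, SD, n = 2). Neurod6, a bHLH factor of cortical projection neurons, was the highest of them, at 264 and 264 TPM. Tbr1, the factor of corticothalamic neurons, was at 38.7 and 34.7 TPM. The vesicular glutamate transporters, which load the transmitter into vesicles, were lower. Slc17a7, the main cortical transporter, was at 46.0 and 52.2 TPM, and Slc17a6, the form that predominates early in development, at 19.3 and 19.6 TPM.

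Markers of upper and deep cortical layers were both present. All 10 upper-layer genes and all 13 deep-layer genes were detected. The upper-layer list summed to 539 and 504 TPM, and the deep-layer list to 554 and 549 TPM, a ratio of 0.974 and 0.918. In counts the ratio was 1.84 and 1.76, and in TPM without the highest member of each list 0.661 and 0.634, so its direction depended on the measure. The upper-layer sum rested on Mef2c, a transcription factor that is also expressed outside the upper layers, at 302 and 275 TPM. Cux1 and Cux2, the homeobox factors of upper layers, were at 66.2 and 69.0 TPM and at 19.7 and 16.7 TPM. In the deep-layer list, Pcp4, a calmodulin-binding protein, led at 195.1 and 188 TPM. Bcl11b and Fezf2, which specify subcortically projecting neurons, stood at 18.4 and 16.7 TPM and at 11.8 and 12.5 TPM. Of the 9 subplate and Cajal-Retzius genes 3 were detected, with Reln, the secreted signal for neuronal migration, at 45.4 and 41.3 TPM. Reln is also made by interneurons, and the defining Cajal-Retzius factor Trp73 was at 0.59 and 0.67 TPM.

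The GABAergic list was likewise present in full. All 9 genes of the list were detected and summed to 489 and 486 TPM. Gad1 and Gad2, the glutamate decarboxylases that make GABA, were at 159 and 156 TPM and at 37.4 and 32.7 TPM. Slc32a1, which loads GABA into vesicles, was at 9.20 and 8.46 TPM. Dlx1, a factor of the ventral forebrain from which interneurons arise, was at 77.0 and 82.2 TPM, whereas its neighbour Dlx2 was at 4.01 and 4.52 TPM. Dlx1 was the one gene of the list whose count was not whole. The ratio of the glutamatergic to the GABAergic list was 1.10 and 1.11 in summed TPM, but 0.915 and 0.916 in counts and 0.877 and 0.878 in TPM without the highest member of each list, so no order of the lists was fixed. Single genes also differed in direction. Slc17a6 and Slc17a7 together were 7.76-fold above Slc32a1 (log2 ratio 2.96 ± 0.18), whereas both glutamate decarboxylases together were 3.01-fold and 2.63-fold above both vesicular glutamate transporters. In RNA from whole dishes, fewer cells of a type and less RNA per cell cannot be told apart, so none of these is a ratio of cells.

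Markers of interneuron lineages were detected. Of 22 genes 20 were detected, led by the neuropeptides Npy (189.8 and 241 TPM) and Sst (116 and 129 TPM) and the calcium-binding protein Calb2 (119 and 126 TPM). Lhx6, the factor of interneurons from the medial ganglionic eminence, was at 37.9 and 35.1 TPM. Nr2f2 and Prox1, factors of interneurons from the caudal ganglionic eminence, were lower, at 9.15 and 9.93 TPM and at 6.01 and 6.49 TPM. Vip, a peptide of that lineage, was at 3.42 and 2.86 TPM. Pvalb, which marks fast-spiking interneurons and appears late in development, was below the detection level in both libraries, at 0.67 and 0.72 TPM.

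Markers of neurons of neighbouring regions had lower sums. Of 12 striatal projection neuron genes 11 were detected, at a summed 96.4 and 99.6 TPM. The highest were Ppp1r1b, the dopamine-regulated phosphatase inhibitor, at 34.4 and 31.0 TPM, and the opioid peptide gene Penk at 16.2 and 16.6 TPM, both of which cortical cells also make. The dopamine receptors Drd1 and Drd2 were at 2.10 and 1.90 TPM and at 6.02 and 5.43 TPM. Of 14 genes for other transmitters 3 were detected, none above 3 TPM. Slc17a8, a further vesicular glutamate transporter, was at 2.49 and 2.74 TPM, Slc18a2, the vesicular monoamine transporter, at 2.54 and 1.90 TPM, and Ddc, an enzyme of monoamine synthesis, at 1.63 and 2.18 TPM. Tph2, which makes serotonin, and Chat, which makes acetylcholine, were at most 0.24 TPM.

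Maturity was read from 9 of the 14 gene pairs, those that set genes taken as early in neuronal development against one taken as late. A late member may join an early one without replacing it, as Scn8a does below. In the neurofilament and synaptotagmin pairs the early side is a sum of genes. Of these, 6 stood on the early side and 3 on the late side. Grin2b, the early NMDA receptor subunit, was 15.1-fold above Grin2a, the late one, at 115 and 92.5 TPM against 6.94 and 6.67 TPM (log2 ratio 3.92 ± 0.18, and 6.00 in counts). Scn3a, the fetal sodium channel, was 7.04-fold above Scn1a (2.82 ± 0.27). Scn2a, the first channel of the axon initial segment, was 3.96-fold above Scn8a, which joins it later (1.99 ± 0.02, and 1.38 in counts). Camk2b was 3.70-fold above Camk2a, the subunit that dominates in adult cortex (1.89 ± 0.16, and 1.25 in counts). The neurofilaments Nefl and Nefm together were 19.9-fold above Nefh, the heavy subunit of mature axons (4.31 ± 0.08).

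Synaptotagmins were on the early side as well, with Syt4 and Syt11 together 2.66-fold above Syt1, the fast calcium sensor of release (1.41 ± 0.07). The chloride transporters stood on the late side. Slc12a5, encoding KCC2, which lowers intracellular chloride and makes GABA inhibitory, was at 55.5 and 55.8 TPM. Slc12a2, encoding the importer NKCC1, was at 9.67 and 9.12 TPM, so the extruder was 5.92-fold higher (log2 ratio of importer to extruder -2.57 ± 0.07). The scaffold genes had the same direction, with Dlg4, encoding PSD-95, 3.73-fold above Dlg3, encoding SAP102 (-1.90 ± 0.08, and -0.84 in counts). Slc17a7 was 2.52-fold above the developmental transporter Slc17a6 (-1.33 ± 0.11, and -0.73 in counts). Cplx2 was 1.31-fold above Cplx1 in TPM, and their log2 ratio was 0.39 in TPM and 1.68 in counts. In each of the 14 pairs both libraries had the same direction, and the larger of the 2 values stayed the larger with counts in place of TPM.

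**Figure D3:**
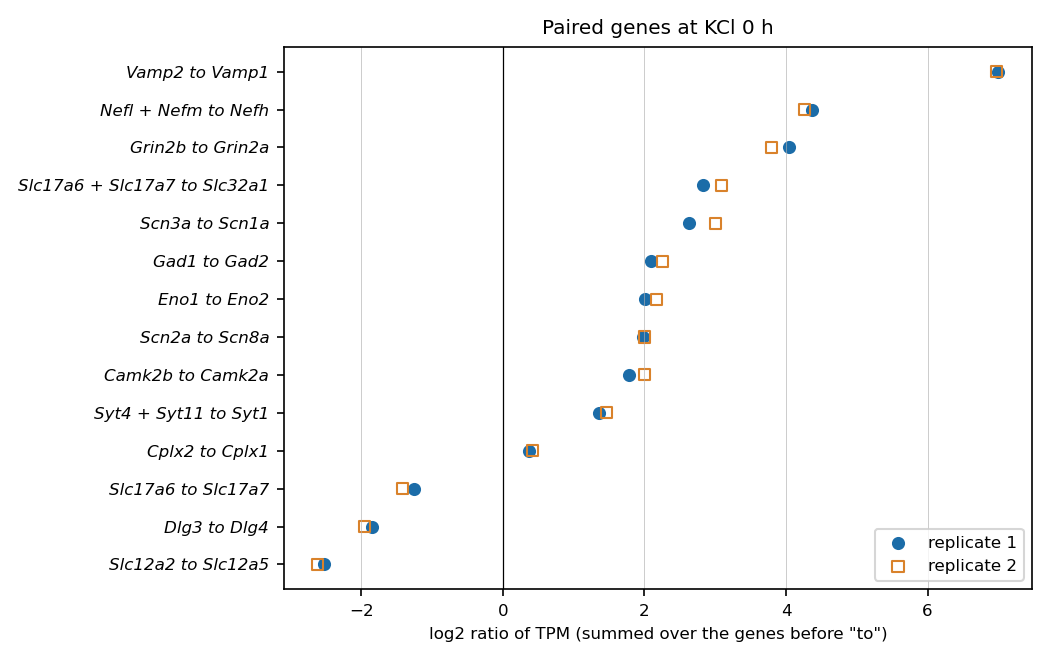
log2 ratio of TPM for each of the 14 gene pairs, with circles for replicate 1 and squares for replicate 2 and a line at equal levels. The pairs of Grin2b and Scn3a lie right of the line, on the early side, and the pair of Slc12a2 and Slc12a5 lies left of it at -2.52 and -2.61.

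Genes of immature neurons exceeded those of mature neurons in summed level. Of 14 immature genes 11 were detected, summing to 12847 and 13318 TPM, and of 18 mature genes 17 were detected, summing to 900.0 and 857 TPM. The immature sum was 14.3 and 15.5 times the mature one in TPM, and 7.01 and 7.42 times in counts. It came mostly from Stmn1, Tubb2b and Dpysl3, a collapsin response mediator of growth cones at 2072 and 1997 TPM. Dcx, the microtubule protein of migrating neurons, was at 519 and 472 TPM, and Sox11 and Sox4, factors of newly formed neurons, at 50.6 and 47.9 TPM and at 43.4 and 42.6 TPM. Eomes, the factor of intermediate progenitors, was below detection at 0.65 and 0.54 TPM. By list median the difference was smaller, at 35.3 TPM for immature and 16.52 TPM for mature genes. The highest mature gene was Mef2c, described above and also a member of the upper-layer and activity-regulator lists. Cplx1 (185 and 179 TPM) and Camk2a (98.0 and 87.2 TPM) followed, whereas the potassium channel Kcna1, found on myelinated axons, was at 3.73 and 3.63 TPM.

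The receptors and channels that the silencing drugs act on were expressed. The alpha subunits of voltage-gated sodium channels, the pore-forming proteins that tetrodotoxin blocks, summed to 136 and 129 TPM. Scn2a (70.2 and 65.0 TPM) and Scn3a (39.95 and 40.7 TPM) made up most of this, followed by Scn8a at 17.9 and 16.3 TPM. Of the NMDA receptor subunits, the target of AP5, 5 of 7 were detected. Grin2b held 56.5% and 52.0% of their sum, and the obligatory subunit Grin1 was at 55.7 and 51.9 TPM. Grin3a, a subunit of early postnatal synapses, was at 22.1 and 22.8 TPM.

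Receptors and channels that the drugs do not block were also present. All 9 AMPA and kainate receptor subunits were detected, led by Gria2, the subunit that makes AMPA receptors impermeable to calcium, at 273 and 238 TPM. Of 10 voltage-gated calcium channel alpha subunits 8 were detected. Cacna1a and Cacna1b, the channels of transmitter release, were highest at 48.6 and 48.5 TPM and at 45.4 and 48.3 TPM. The L-type channels, through which depolarization by KCl is known to signal to the nucleus, were represented by Cacna1c at 20.7 and 18.9 TPM and Cacna1d at 12.6 and 11.7 TPM. L-type genes held 17.4% and 16.0% of the calcium channel TPM.

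Immediate-early genes ranged from under the detection level to 25.0 TPM. Of 20 such genes 11 were detected, and the list summed to 107 and 116 TPM with a median of 1.84 TPM over all 20. At 0.5 TPM 16 passed, and 17 reached 10 counts in both libraries. Several genes widely used as reports of firing were near or under the detection level. Fos was at 1.77 and 1.5 TPM from 43 and 41 counts. Npas4, which responds to calcium entry, was at 1.11 and 0.91 TPM, and Arc, an effector at synapses, at 0.41 and 0.81 TPM. Fosb was at 0.18 TPM in replicate 1, from 10 counts, and had 0 counts in replicate 2, which allow up to 0.0522 TPM. Egr4 had 1 and 3 counts. Fos ranked 12727th among all listed genes by mean TPM.

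A second set of immediate-early genes stood above 10 TPM. Fosl2, a member of the AP-1 family, was at 24.2 and 25.0 TPM, and Nr4a3, an orphan nuclear receptor, at 22.7 and 22.2 TPM. Jun, the partner of Fos proteins, was at 14.8 and 16.2 TPM. Btg2, an antiproliferative gene, was at 11.8 and 14.7 TPM, and Dusp1, a phosphatase that turns off MAP kinases, at 11.4 and 12.6 TPM. These 5 genes held most of the list's sum in both libraries. Between the sets lay Nr4a2, Egr1, Egr3, Nr4a1 and Fosl1, at 1.78 to 5.49 TPM.

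Of 15 genes that respond later to activity 12 were detected, with a summed 227 and 228 TPM. Scg2, a precursor of secreted peptides, was at 76.0 and 75.4 TPM, and Homer1, a postsynaptic scaffold whose short form is induced by activity, at 51.0 and 46.2 TPM. The gene-level value does not separate the short from the long form. Bdnf, the neurotrophin, was at 1.87 and 1.51 TPM from 112 and 94 counts, and Nptx2, a secreted pentraxin of excitatory synapses, at 2.14 and 2.81 TPM. Ptgs2, the inducible cyclooxygenase, was at 0.08 and 0.16 TPM. By contrast, all 13 transcription regulators through which calcium acts on these genes were detected. Mef2c was highest at 302 and 275 TPM. Creb1 was at 36.7 and 31.0 TPM, Srf at 13.8 and 14.6 TPM, Mef2a and Mef2d at 55.9 and 51.7 TPM and at 51.3 and 53.1 TPM, and the kinase Camk4 at 35.2 and 29.1 TPM. 

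**Figure D4:**
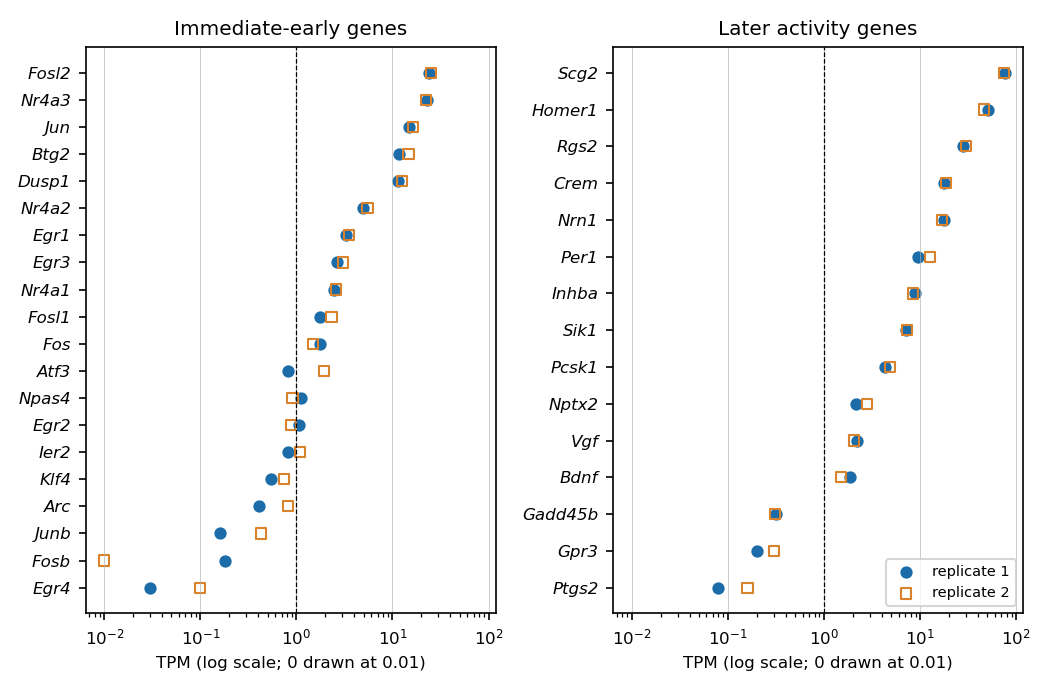
TPM on a log axis of the 20 immediate-early and 15 later activity genes, with circles for replicate 1, squares for replicate 2 and a dashed line at the detection level of 1 TPM, a value of 0 being drawn at 0.01. Fosl2, Nr4a3, Jun, Btg2 and Dusp1 lie above 10 TPM in both libraries, whereas Fos lies near the line at 1.77 and 1.5 TPM.

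The non-neuronal lists with the highest sums were those of radial glia and of astrocytes. Of 15 astrocyte genes 14 were detected, at a summed 2049 and 2271 TPM. The pan-neuronal list was 4.20-fold and 3.79-fold above it. Apoe, the lipid carrier, was highest at 766 and 891 TPM. Glul, which converts glutamate to glutamine, was at 323 and 338 TPM and the glutamate transporter Slc1a3 at 306 and 323 TPM. Aldh1l1, a folate enzyme used as an astrocyte marker, was at 77.4 and 89.1 TPM. Gfap, the intermediate filament of mature and reactive astrocytes, was at 18.8 and 30.9 TPM. Gjb6, a connexin of mature astrocytes, was at 0.07 TPM in both libraries. Of the 14 genes compared 12 were higher in replicate 2.

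Progenitor genes were present alongside. Of 13 genes of radial glia and progenitors 12 were detected, at a summed 4467 and 4523 TPM. Fabp7 made up 86.4% and 85.5% of their sum, and the list without it summed to 606 and 654 TPM. Slc1a3 and Sox9 belong to the astrocyte list as well. Vim, an intermediate filament of radial glia, was at 209 and 230.1 TPM, Nes, encoding nestin, at 30.9 and 37.0 TPM, and Sox2, the stem cell factor, at 15.3 and 17.1 TPM. All 18 genes of dividing cells were detected. Pcna, the replication clamp, was at 98.1 and 97.9 TPM, Cdk1, the mitotic kinase, at 53.3 and 57.9 TPM, Top2a, the topoisomerase of dividing cells, at 50.3 and 54.4 TPM and Mki67, the Ki-67 antigen, at 16.4 and 15.4 TPM. The lowest members were Cenpf, Plk1 and Bub1, at 3.85 to 6.05 TPM.

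The oligodendrocyte lineage was present at an early stage. Of 8 precursor genes 7 were detected, at a summed 117 and 146 TPM. Pdgfra, the growth factor receptor of precursors, was at 46.9 and 53.2 TPM, and Olig1 and Olig2, the lineage factors, at 29.5 and 32.9 TPM and at 20.1 and 20.6 TPM. Gpr17, a receptor of cells starting to differentiate, was at 10.0 and 20.8 TPM. Of 10 genes of oligodendrocytes 4 were detected, and 7 reached 10 counts in both libraries. Mbp, a myelin protein, was at 15.1 and 21.7 TPM, whereas Mobp was at 0.05 and 0.06 TPM and Opalin had 0 counts in both libraries. All 7 precursor genes and all 4 oligodendrocyte genes compared were higher in replicate 2.

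Other cell types contributed little. Of 14 microglial genes 5 were detected and 8 reached 10 counts in both libraries, at a summed 12.6 and 26.5 TPM for the list. Tyrobp, an adaptor protein of microglia, was at 2.63 and 5.99 TPM, whereas the defining receptors Cx3cr1 and P2ry12 were at 0.09 and 0.17 TPM and at 0.10 and 0.03 TPM. The sum was 2.10-fold higher in replicate 2 in TPM, and rested on 167 and 286 counts. The one endothelial gene of 12 detected was the glucose transporter Slc2a1, at 6.54 and 9.52 TPM, which is not particular to endothelium, and 3 of the 12 reached 10 counts. The defining endothelial genes Cldn5 and Cdh5 were at 0 and 0.16 TPM and at 0.02 TPM in both libraries. Of the mural cell genes 4 of 10 were detected, with Pdgfrb, the receptor of pericytes, at 1.75 and 2.00 TPM. Of the fibroblast and meningeal genes 3 of 11 were detected, and 7 reached 10 counts in both libraries. Dcn, the proteoglycan decorin, was at 13.9 and 16.54 TPM, but the 3 collagen genes of the list summed to 1.75 and 1.24 TPM.

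Of 9 red blood cell genes 0 were detected, with the adult globin gene Hba-a1, which shares reads with Hba-a2, at 0.88 and 0.44 TPM. The transthyretin gene Ttr, a product of the choroid plexus, was at 117 and 157 TPM, whereas the other choroid plexus genes of the list, Folr1, Aqp1 and Kl, were at 7.21 and 3.57 TPM, at 1.02 and 0.78 TPM and at 0.20 and 0.05 TPM. Most astrocyte and oligodendrocyte genes compared were higher in replicate 2, as were the glycolytic genes described above. Of 11 radial glia and progenitor genes compared 10 were also higher there, by a median of 1.07-fold. The microglial sum was higher as well, but no microglial gene had enough counts to be compared singly. The parts of these groups in each other's differences were not tested.

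**Figure D5:**
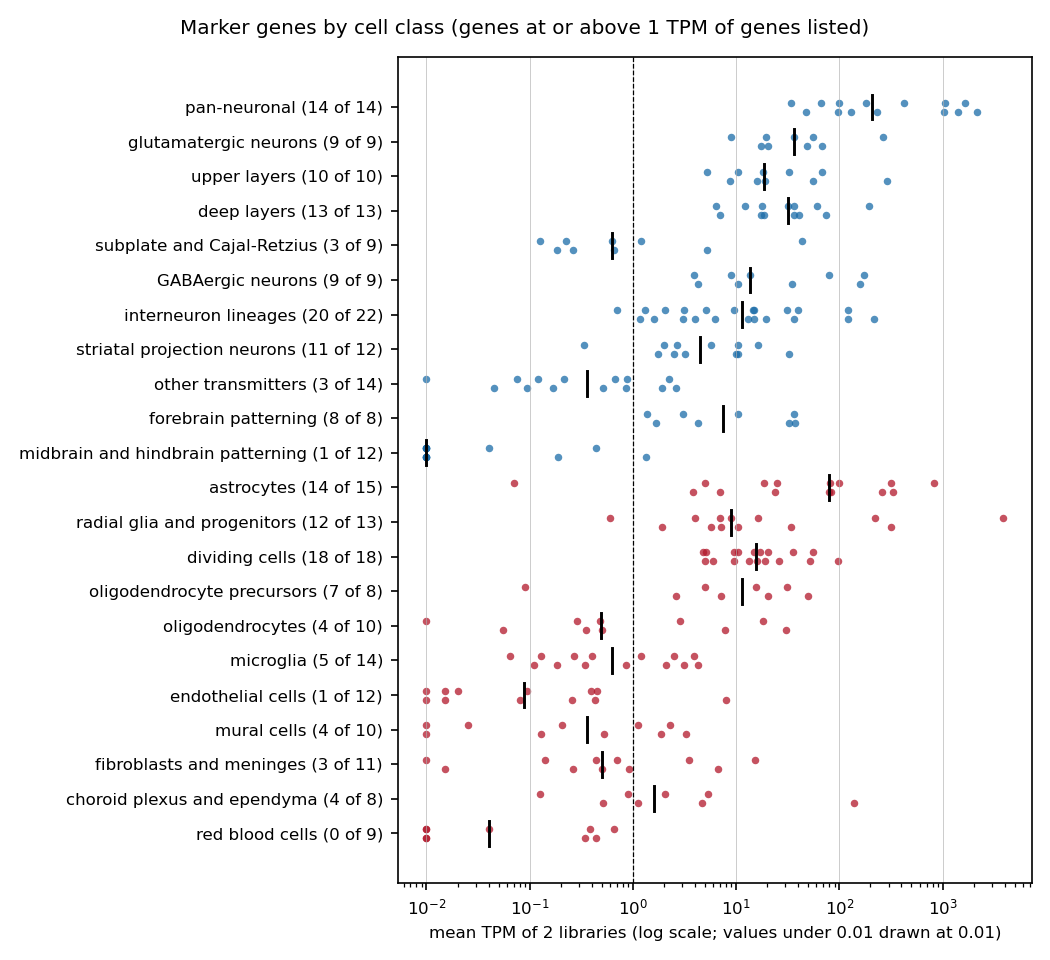
Mean TPM of 2 libraries on a log axis for each gene of the neuronal and regional lists (blue) and the non-neuronal lists (red), with the list median as a bar, the detection level of 1 TPM as a dashed line, and values under 0.01 drawn at 0.01. Pan-neuronal genes have a median of 205.8 TPM and astrocyte genes of 80.1 TPM, whereas the medians of microglial, endothelial, mural and red blood cell genes lie under 1 TPM.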

How the data were processed

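RNA from the cultures underwent 2 rounds of poly(A) selection, was made into stranded TruSeq libraries, size-selected and sequenced as read pairs. The authors trimmed reads with Trim Galore, mapped them to mm10 and quantified genes with RSEM, and the submitters' processing notes name RSEM 1.3.0 and Bowtie2 2.2.9. The annotation release and the strand setting are not given in the sources used here. The authors deposited, per gene and library, an expected count, in which RSEM divides reads that fit several genes, and a TPM value, in which counts are scaled by effective length. Fragments of short transcripts are scarce after size selection, which makes the TPM of short genes imprecise.

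Gene identifiers were matched to GENCODE M21, the source of symbols, places and sequences (42548 of 43432 matched), and values were summarised with Python 3.11.15 and pandas 2.3.3 as mean ± SD of 2 libraries. Detection meant at least 1 TPM in both libraries, and a gene was said to share reads where its expected count was not a whole number in either library. The summaries were tested on simulated data, and no test between groups was run. The text names genes of 59 lists and 14 pairs and the 40 genes with the highest mean TPM. It also names the 5 genes with the largest ratio between replicates in each direction. For these, a mean count of at least 100 and a nonzero TPM in both libraries were required. The members and lists were chosen with earlier results of these data known. List names that matched no symbol, such as Lhfpl3, Mkl1 and Mkl2, were left out, and some genes of the lists are not reported here. Alternatives were another detection level, counts in place of TPM, lists without genes that share reads, without their highest member or without Rps27, TPM rescaled without mitochondrial or short genes, and leaving out each replicate.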

Additional observations from a re-analysis of the deposited data

How the results depend on the processing

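Replacing TPM by expected counts, which carry no length correction, moved most values. The number of genes that hold 50% of the library rose from 395.5 to 980.5 (means of 2 libraries). The share of mitochondrially encoded proteins became 3.005%, of cytosolic ribosomal proteins 1.89%, of the nuclear respiratory chain 0.841%, of tubulins 2.27% and of glycolysis 0.657%. Counts gave log2 ratios of -2.41 for Slc12a2 to Slc12a5, 6.00 for Grin2b to Grin2a, 2.37 for Scn3a to Scn1a, 1.38 for Scn2a to Scn8a, 1.25 for Camk2b to Camk2a, -0.84 for Dlg3 to Dlg4 and 4.04 for Nefl and Nefm to Nefh. The others were 1.68 for Cplx2 to Cplx1, 6.52 for Vamp2 to Vamp1, 1.14 for Syt4 and Syt11 to Syt1, -0.73 for Slc17a6 to Slc17a7, 1.16 for Gad1 to Gad2 and 3.24 for both vesicular glutamate transporters to Slc32a1, with no change of sign. Using only genes with whole counts in both libraries, the shares were 3.50% for mitochondrially encoded proteins, 3.92% for ribosomal proteins, 2.74% for the respiratory chain, 0.389% for tubulins (Tuba1a has non-whole counts) and 0.487% for glycolysis, and the GABAergic sum was 407.7 TPM. Rescaling without mitochondrial genes gave 8.31%, 3.25% and 3.15% for ribosomal proteins, the respiratory chain and tubulins, and 572 and 517 TPM for the glutamatergic and GABAergic sums. Rescaling without genes under an effective length of 200 bases, chosen after seeing the data, gave 6.06% for mitochondrially encoded proteins, 6.41%, 2.04% and 3.29%. Adding the nuclear copies, also chosen after seeing the data, gave 14.2% for mitochondrially encoded proteins. Leaving out Rps27, another later choice, gave 7.45% for ribosomal proteins. The ratios between lists in counts and without the highest members were also added after seeing the data.

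Without their highest member the sums were 275 TPM (glutamatergic), 313 TPM (GABAergic), 1332 TPM (astrocytes), 81.8 TPM (oligodendrocyte precursors) and 1.75 TPM (endothelial cells). Detection at 10 counts in both libraries gave 17 immediate-early, 8 microglial, 3 endothelial, 7 oligodendrocyte and 7 fibroblast and meningeal genes, in place of 11, 5, 1, 4 and 3. Detection at 0.5 TPM gave 5 for the last of these lists. Leaving out either replicate kept each mean within 1 SD, as it must for 2 libraries. Counts of detected genes have no SD. With 1 library they were 13429 and 13438 in place of 13078, 13 and 13 immediate-early genes, and 7 and 5 microglial genes (without replicate 1 and without replicate 2). Replicate numbers were not used as pairs, since only 1 group was described. With 2 libraries of 1 group, an SD is itself imprecise, and genes under about 1 TPM rest on few counts.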

Other observations

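Transcription factor families held both detected and silent members. Of 19 Sox genes 13 were detected, from Sox11 at 50.6 and 47.9 TPM down to Sox13 at 2.44 and 1.61 TPM. Sox12, which acts with Sox4 and Sox11 in neurons, was at 39.7 and 41.1 TPM, and Sox17 and Sox18, factors of endoderm and vessels, had 0 counts in both libraries, as did Sox14. Of 15 POU genes 7 were detected. Pou6f1 was highest at 31.2 and 32.4 TPM, Pou3f3 and Pou3f2, factors of upper-layer neurons, followed at 16.2 and 15.9 TPM and at 11.1 and 9.58 TPM, and the pluripotency gene Pou5f1 was listed at 0. Of 20 bHLH factors 13 were detected. Below Neurod6, Tcf4 was at 219 and 221 TPM and Id2, an inhibitor of bHLH factors, at 136 and 157 TPM. Neurog2, which starts neurogenesis in cortical progenitors, was at 0.85 and 0.78 TPM, and Neurog1, Neurog3 and Atoh1 had 0 counts in both libraries.

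In a list of 11 long noncoding RNAs, Rian, a maternally expressed transcript of the imprinted Dlk1 to Dio3 domain, was highest at 1451 and 1289.9 TPM, and its neighbour Meg3 was at 197.9 and 191 TPM. Gas5, a host gene of small nucleolar RNAs, was at 440 and 443 TPM. Malat1, a nuclear RNA, was at 23.9 and 26.6 TPM, and Neat1 was below detection at 0.83 and 0.76 TPM. Families of other tissues were nearly silent. Of 1313 olfactory and vomeronasal receptor genes 4 were detected, and 1262 had 0 counts in both libraries. Of 105 keratin genes and keratin-associated genes 5 were detected, led by Krt222 at 6.12 and 5.24 TPM. Of 15 muscle genes 0 and of 13 liver genes 1 were detected, the latter being Ttr.

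Transcripts of both sexes were found in both libraries, made from pooled male and female embryos. Xist, the RNA of the inactive X chromosome, was at 71.5 and 44.7 TPM. The Y-linked Eif2s3y was at 30.7 and 28.2 TPM and Ddx3y at 11.5 and 7.09 TPM. The ratio of 4 Y-linked genes to Xist was 0.819 and 1.10.

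Some gene groups leaned to 1 library, beside 52.0% of all 12329 genes compared that were higher in replicate 2. Of 81 ribosomal protein genes compared 70 were higher in replicate 2, by a median of 1.08-fold. All 12 GABA-A receptor subunit genes compared were lower in replicate 2, with Gabrb2 at 60.2 and 44.8 TPM and Gabra2 at 170.0 and 147 TPM. A list of 21 genes that low oxygen raises in many cell types was assembled after the values were seen, so its direction is a description and no support. Vegfa was at 34.3 and 56.7 TPM, Bnip3 at 74.1 and 109 TPM, and Slc16a3, the lactate exporter, at 1.00 and 5.49 TPM. The median log2 ratio of replicate 1 over replicate 2 ran from 0.06 in the group of genes with the lowest GC content (4 groups of nearly equal size) through 0.01 and -0.03 to -0.07 in the highest. The median GC content was 42.1% for the GABA-A list, 50.9% for the ribosomal list and 51.1% for the low-oxygen list. Its part in these differences was not tested.

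Genes were ranked by their ratio between replicates where the mean count was at least 100 and the TPM nonzero in both libraries. Rps27, at 7536 and 0 TPM, was therefore left out. The 5 that were highest in replicate 2 relative to replicate 1 were Gm2223 (0.38 and 14.4 TPM), Marco (2.89 and 9.04 TPM), Bcas1 (2.42 and 7.52 TPM), Rreb1 (1.46 and 4.50 TPM) and Rgs11 (2.28 and 5.70 TPM). Marco is a scavenger receptor of macrophages, and Bcas1 marks oligodendrocytes that are starting to form myelin. The 5 at the other end were mt-Co2 (125 and 19.9 TPM), Gm12918 (103.9 and 28.6 TPM), Gm21962 (13.8 and 5.58 TPM), Gm10171 (33.9 and 14.2 TPM) and Mbd6 (4.75 and 2.01 TPM). Of these 10 genes 5 shared reads with another gene. For Rreb1 the counts were 141 and 166, and the effective lengths were 6032 and 2210.0 bases. For Mbd6 the counts were 171 and 119, and the effective lengths were 2252 and 3541 bases.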
